A study of Mus musculus with 6 samples.

Results

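The class I odorant receptor genes Olfr600 to Olfr692 were taken from the deposited table by symbol alone, with or without the suffix -ps, and the rule itself uses no measured value. They numbered 84 of the 40273 genes, beside 66 other class I receptor genes and 1168 class II receptor genes. Olfactory mucosa, the sheet of nasal tissue in which olfactory sensory neurons sit, was compared between 3 wild-type control mice, which carried the eC element, and 3 mice from which this element had been deleted. All 6 mice were male, were on the strain background 129S6;C57BL/6J and were taken on postnatal day 30, and no other allele or treatment is named for either group. The element is a stretch of 1005 bp on chromosome 7 (102916999 to 102918004), taken here as GRCm38 because the design text names no build, and the series title calls it a class I odorant receptor enhancer. How many founders the deletion line had is not given in the sources used here. All 84 members lay on chromosome 7 between 103343482 and 105369355 (GENCODE vM21, GRCm38), a span of 2026 kb that began 425 kb above the element and ended 2450 kb above it.

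Odorant receptors are G protein-coupled receptors that sit in the cilia of olfactory sensory neurons and signal through the G protein subunit Gnal and the adenylyl cyclase Adcy3. A mature neuron expresses a single receptor gene out of the whole repertoire, and mostly from one allele, so a receptor's RNA in whole mucosa reflects both how many neurons chose it and how much each makes. Class I receptors are the receptor class that mammals share with fish, and in the mouse their genes form one cluster on chromosome 7, whereas class II genes occur on most chromosomes. In bulk tissue, fewer neurons of a type and less RNA per neuron cannot be told apart.

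Many members have a near-identical copy in the cluster, and the results below turn on several such pairs. Of 73 members whose coding sequence aligned to another receptor over at least 80% of its length, 22 had a copy of at least 95% identity and 31 a copy of at least 90%, and the median identity to the closest copy was 84.9% (range 64.4% to 99.5%). For 61 of the 73 the closest copy was itself a member. Olfr611 and Olfr612, which lie side by side, differed at 24 of 969 coding bases (97.5% identity). The most diverged stretch of 150 bases, coding positions 481 to 630, is shown because it is what separates a member with a large difference from its copy. Olfr611 is read there from chr7:103517753-103517902 and Olfr612 from chr7:103538603-103538752, both on the minus strand of GRCm38 (GENCODE vM21 transcripts), 5′ to 3′, and capitals mark the 14 bases that differ.
Olfr611: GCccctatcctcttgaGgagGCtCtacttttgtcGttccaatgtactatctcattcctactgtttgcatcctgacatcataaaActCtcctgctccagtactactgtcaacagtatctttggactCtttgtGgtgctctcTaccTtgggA
Olfr612: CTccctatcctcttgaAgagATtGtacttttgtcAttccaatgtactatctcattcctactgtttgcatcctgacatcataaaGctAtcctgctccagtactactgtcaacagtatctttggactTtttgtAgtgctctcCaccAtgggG

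Olfr603 is shown for the opposite reason, since it was nearly the same as Olfr596, a class I gene outside the Olfr600 to Olfr692 range. The pair differed at 5 of 936 coding bases (99.5% identity). Coding positions 331 to 480, read from chr7:103383521-103383670 on the minus strand for Olfr603 and from chr7:103310053-103310202 on the plus strand for Olfr596 (GRCm38), hold 2 of these differences, which are in capitals.
Olfr603: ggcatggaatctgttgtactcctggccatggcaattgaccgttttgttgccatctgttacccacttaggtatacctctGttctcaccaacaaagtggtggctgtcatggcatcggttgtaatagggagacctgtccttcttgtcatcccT
Olfr596: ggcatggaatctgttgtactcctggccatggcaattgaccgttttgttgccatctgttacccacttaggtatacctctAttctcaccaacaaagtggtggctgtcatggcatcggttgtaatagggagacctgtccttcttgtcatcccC
How reads were counted, and what was done with reads that fit several genes, is not stated, so the split of reads within such pairs is uncertain.

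Reads in genes numbered 50906277, 31281010 and 31100948 for control replicates 1, 2 and 3, and 49279931, 34169776 and 30342763 for deletion replicates 1, 2 and 3. Olfr571, the receptor gene that the element overlaps, had normalized counts of 45.1, 44.8 and 39.5 in the controls and was at 0 in all 3 deletion libraries, as labelled. The libraries also fell into 2 sets of 3 that the labels do not name. Control 1, deletion 1 and deletion 2 (set A) had reads in 26564 to 27879 genes, and control 2, control 3 and deletion 3 (set B) in 36197 to 37456. The sets crossed the groups but not evenly, so each result is given for all 6 libraries, with the library set as a second term (the set-adjusted fit), and where needed within each set.

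Of the 84 members, 73 had a read in every library, and 68 passed the filter of a normalized count of at least 10 in at least 3 libraries and were tested. The 16 untested members were the 12 marked -ps and 4 others, Olfr631, Olfr664, Olfr687 and Olfr692. The -ps members had normalized counts between 0 and 13.8, and 10 of the 12 stayed under 10 in every library. Of the tested members, 48 had at least 10 in all 6 libraries, 1 (Olfr611) passed through the controls alone and 1 (Olfr603) through the deletion libraries alone. Their mean normalized counts over the 6 libraries ran from 7.97 to 483 with a median of 55.7, with 15 members above 100 and 10 below 20. Signal was spread over many genes: the 10 members with the highest means held 39.7%, 38.3% and 39.9% of the members' summed value in the controls and 44.1%, 45.0% and 40.6% in the deletion libraries.

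**Figure D1:**
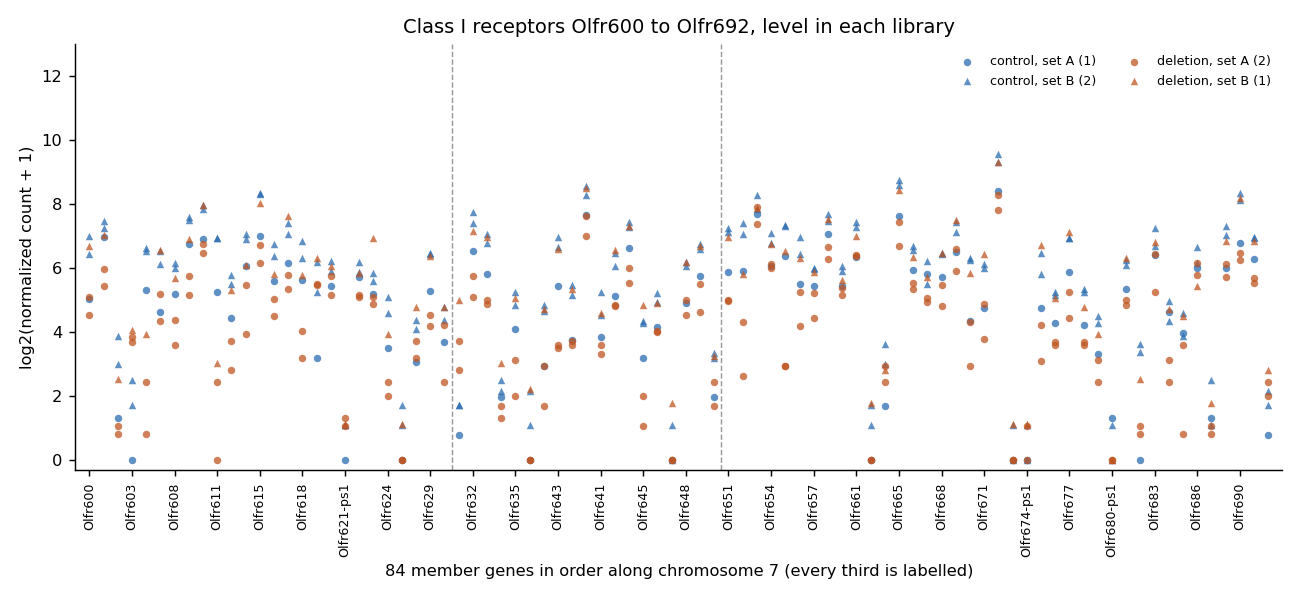
Level of each of the 84 members in each of the 6 libraries, as log2(normalized count + 1), in order along chromosome 7. Blue is control, orange is deletion, circles are library set A and triangles set B, and dashed lines mark the beta-globin genes and the Trim genes. Triangles lie above circles for most members, and among circles the orange ones lie mostly below the blue.

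Summed over all 84 members, normalized counts were 4040, 7981 and 7961 in the controls and 2313, 3257 and 7078 in the deletion libraries. The groups overlapped, because deletion 3 stood above control 1. Within each set the deletion libraries were the lower ones, at a mean of 2785 against 4040 in set A and at 7078 against a mean of 7971 in set B. Of the 68 tested members, 64 had a fitted fold change below 0 (94.1%, against 47.5% of the 20368 genes tested), and their median log2 fold change was -0.74 against 0.01 for all genes tested.

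No single member carried this difference past the threshold. In limma with Benjamini-Hochberg adjustment over all genes, 0 of the 68 members had an adjusted p under 0.05, where 0.0736% of all genes tested did. At an unadjusted p under 0.05, 12 members were lower in the deletion libraries and 1 was higher, against backgrounds of 1.26% and 1.44% of genes. On the recovered reads, edgeR called 0 members (0.0752% of its genes) and DESeq2 called 2, Olfr605 and Olfr611 (0.129% of its genes). The same 2 were called after scaling to class II signal (0.133% of genes), and set B alone added Olfr652 (0.442% of genes), with 1 deletion library there. In the authors' deposited table, 1 of the 76 members with an adjusted p was under 0.05, namely Olfr611 at 0.0161, beside 0.11% of all genes with an adjusted p there.

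In the set-adjusted fit the median member fold change was -0.39 (all genes 0.00), and 62 of 68 members were below 0 (91.2%, against 49.3% of all genes). There 2 members were called, both lower in the deletion libraries, Olfr611 and Olfr605, where 0.0933% of genes were called lower. The median was -0.59 within set A, with 62 of 68 members below 0, and -0.13 within set B, with 44 of 68 below 0. The median of the fit with group alone, -0.74, was -1.27 without deletion 3 and -0.40 without deletion 1. That of the set-adjusted fit was -0.22 without deletion 1. Without deletion 3 or control 1 the set-adjusted fit compares the groups within set A or set B alone. Its medians there, -0.59 and -0.13, therefore repeat the values within each set and are no separate check. For 30 of 68 members (44.1%, against 11.3% of all genes tested) each deletion library was below every control of its own set in both sets, and for 3 (Olfr603, Olfr619 and Olfr628) each was above (10.3% of all genes). The other class I genes had like medians, -0.75 in the fit with group alone and -0.40 in the set-adjusted fit (49 tested), and class II genes had -0.17 and -0.05 (900 tested). The difference between members and the other class I genes was not tested.

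The members lie in 3 blocks, parted by the beta-globin genes and by the Trim genes, which share the cluster with the receptors. The block nearest to the element was Olfr600 to Olfr630 (103343482 to 103757333, 26 members, 23 tested, 425 to 835 kb from the element). It held the tested members with the largest fold changes in both directions. These were Olfr611, which passed the filter through the controls alone, and Olfr603, which passed through the deletion libraries alone. The block's median log2 fold change was -0.92 (-0.43 in the set-adjusted fit), with single values from -4.55 to 2.46. It held 9 of the 12 members lower at an unadjusted p under 0.05, and the 1 that was higher.

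The middle block, Olfr631 to Olfr650-ps1 (103928825 to 104207865, 19 members, 14 tested, 1011 to 1285 kb away), had a median of -0.81 (-0.34 in the set-adjusted fit). The values of its tested members were closer together, from -1.78 to -0.46, and all 14 were below 0 in both fits. Olfr631, which was higher in every deletion library than in any control, lies in this block but failed the filter. Within set B alone, however, 6 of the 14 were below 0 and the median was 0.02, against -0.19 in the near block (14 of 23 below 0) and -0.16 in the far block (24 of 31). The far block, Olfr651 to Olfr692 (104550133 to 105369355, 39 members, 31 tested, 1632 to 2450 kb away), had a median of -0.67 (-0.39 in the set-adjusted fit). All 31 of its tested members were below 0 in both fits, from -2.88 to -0.22 with group alone. In the near block 19 of 23 were below 0, and 17 of 23 in the set-adjusted fit. The blocks' medians were not tested against each other.

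**Figure D2:**
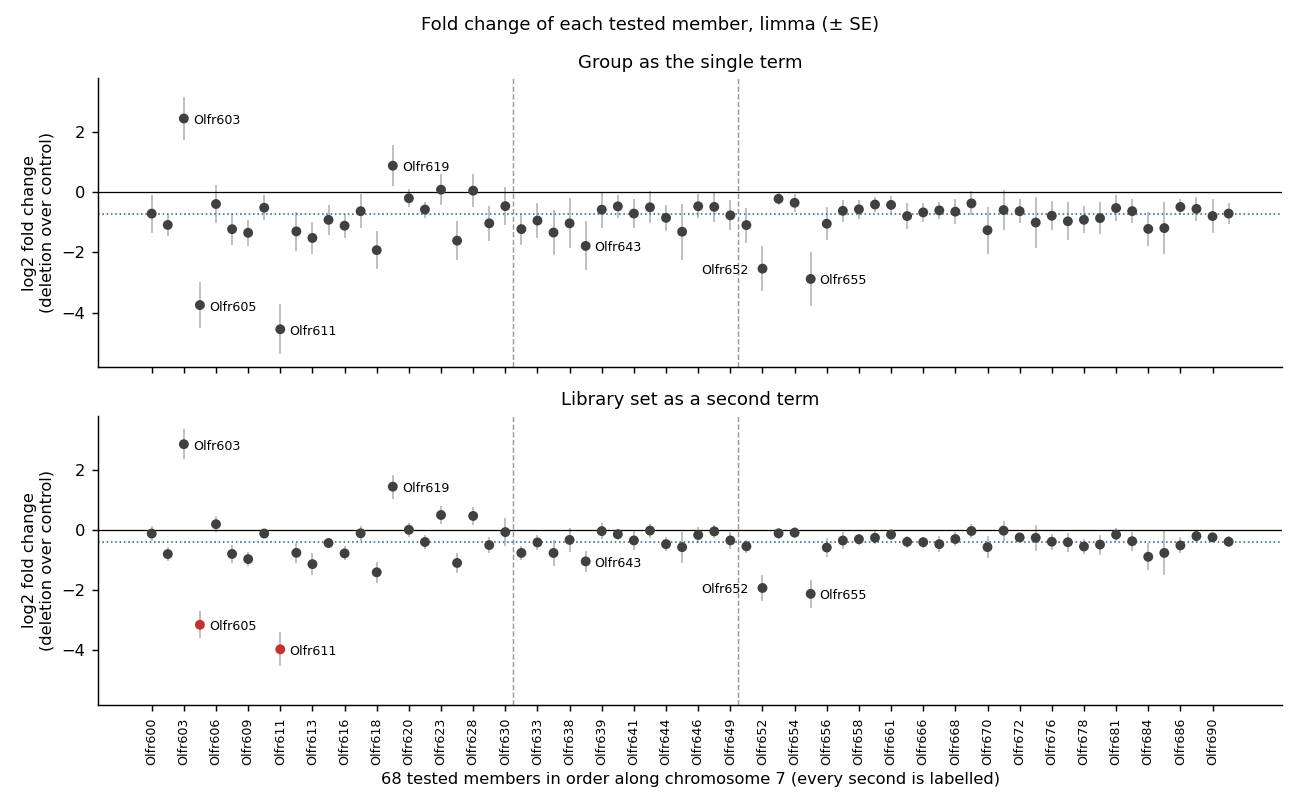
Log2 fold change (deletion over control, limma, bars ± SE) of the 68 tested members in order along chromosome 7, with group alone (top) and with the library set as a second term (bottom). Dashed lines part the 3 blocks, the dotted line is the members' median and red marks an adjusted p under 0.05. Most members lie in a band just below 0, and Olfr611, Olfr605, Olfr655, Olfr652 and Olfr603 stand apart from it.

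Olfr611 (chr7:103516465-103520846, minus strand, 598 kb from the element) showed the largest fall of any tested member in the set-adjusted fit. It had normalized counts of 37.0, 123 and 122 in the controls and of 0, 4.42 and 7.24 in the deletion libraries, from 50, 107 and 105 reads against 0, 4 and 6. Every deletion library lay below every control, deletion 1 held none of its reads, and set B was above set A in both groups. The mean was 94.0 ± 49.4 in controls and 3.89 ± 3.65 in deletion libraries (SD, n = 3 each), a 24.2-fold difference of means. The log2 fold change was -4.55 ± 0.82 (SE, limma adjusted p = 0.358) with group alone and -3.97 ± 0.56 (limma adjusted p = 0.0316) in the set-adjusted fit.

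Its neighbour and copy Olfr612 had 20.7, 44.8 and 53.5 in the controls and 5.98, 12.1 and 38.6 in the deletion libraries. These groups overlapped, and the log2 fold change was -1.30 ± 0.64 (SE, limma adjusted p = 0.982). The way shared reads were split between the genes does not affect their sum, but any shared reads that were discarded would be missing from it. Summed over both genes, the values were 57.7, 168 and 176 in the controls and 5.98, 16.6 and 45.9 in the deletion libraries. All 3 deletion sums lay below all 3 control sums.

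Olfr605 (chr7:103440407-103445439, minus strand, 522 kb from the element) had 38.4, 90.7 and 97.7 in the controls and 0.747, 4.42 and 14.5 in the deletion libraries. The groups did not overlap, and the deletion libraries held 1, 4 and 12 reads. The means were 75.6 ± 32.4 and 6.55 ± 7.11 (SD, n = 3 each), 11.5-fold apart. The log2 fold change was -3.75 ± 0.76 (SE, limma adjusted p = 0.492), and -3.15 ± 0.46 (limma adjusted p = 0.0357) in the set-adjusted fit. Its closest copy is Olfr601 (90.5% identity), whose own log2 fold change was -1.08 ± 0.37 (SE, limma adjusted p = 0.982).

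Both calls in the set-adjusted fit were lost when control 1, control 2, control 3 or deletion 3 was left out. Each such fit also has fewer libraries from which to estimate the spread, so a lost call alone does not show that the difference rests on that library. Without control 1, control 2 or control 3 the limma adjusted p of Olfr611 was 0.678, 0.187 and 0.184 and that of Olfr605 was 0.981, 0.174 and 0.184, and without deletion 3 they were 0.395 and 0.161. Both remained under 0.05 without deletion 1 or deletion 2, and both log2 fold changes stayed below -2.6 in each of these fits.

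In the far block, past the Trim genes, Olfr652 and Olfr655 had log2 fold changes beyond -2 with group alone, and neither passed the threshold in that fit or in the set-adjusted fit. Olfr652 (chr7:104560901-104568634, plus strand, 1643 kb from the element) had 59.1, 169 and 133 in the controls and 5.23, 18.8 and 55.5 in the deletion libraries. The highest deletion library stayed just under the lowest control. Its log2 fold change was -2.54 ± 0.75 (SE, limma adjusted p = 0.982) and -1.93 ± 0.43 (limma adjusted p = 0.372) in the set-adjusted fit. Its closest copy shares 73.8% of bases.

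Olfr655 (chr7:104595301-104601779, minus strand), named after its values were seen, had 82.1, 160 and 163 in the controls and 6.72, 6.62 and 91.7 in the deletion libraries. Deletion 1 and deletion 2 were low and deletion 3 lay above control 1, so the groups overlapped. The log2 fold change was -2.88 ± 0.89 (SE, limma adjusted p = 0.982) with group alone and -2.12 ± 0.48 (limma adjusted p = 0.372) in the set-adjusted fit. Without deletion 3 the fit with group alone gave -4.08 (limma adjusted p = 0.0041). Both remaining deletion libraries were then of set A while the controls were of both sets, so that value mixes group and library set. Within set A alone the log2 fold change was -3.44. Between Olfr652 and Olfr655 lie Olfr653 and Olfr654, also named after their values were seen. Olfr654 had a log2 fold change of -0.35 ± 0.30 (SE, limma adjusted p = 0.982). Olfr653 had 203, 308 and 229 in the controls and 164, 237 and 235 in the deletion libraries. Its groups overlapped throughout, with a log2 fold change of -0.22 ± 0.20 (SE, limma adjusted p = 0.982). Of the 68 tested members, 3 had non-overlapping groups and were lower in the deletion libraries (Olfr605, Olfr611 and Olfr652). That is 4.41%, near the 4.02% of all genes tested. Only 1 was higher without overlap (Olfr603), where 3.66% of all genes were. Olfr611 and Olfr603 passed the filter through 1 group alone, so their groups could not overlap.

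Olfr603 (chr7:103383062-103386177, minus strand, 465 kb from the element) was the tested member with higher levels in the deletion libraries and no overlap of the groups. It had 0, 2.30 and 4.65 in the controls and 12.0, 13.2 and 15.7 in the deletion libraries, from 0, 2 and 4 reads against 16, 12 and 13. The means were 2.32 ± 2.33 and 13.6 ± 1.90 (SD, n = 3 each), with a log2 fold change of 2.46 ± 0.73 (SE, limma adjusted p = 0.982) and of 2.86 ± 0.50 (limma adjusted p = 0.106) in the set-adjusted fit. Its near-identical copy Olfr596, named after its values were seen, had 28.8, 72.3 and 79.1 in the controls and 13.4, 16.6 and 56.7 in the deletion libraries. Summed over both genes the values were 28.8, 74.6 and 83.7 against 25.4, 29.8 and 72.4, and the groups overlapped.

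Olfr631 (chr7:103928825-103929784, plus strand), the member nearest above the beta-globin genes, failed the filter and was named after its values were seen. It had 0.739, 2.30 and 2.33 in the controls and 5.98, 12.1 and 31.4 in the deletion libraries, from 1, 2 and 2 reads against 8, 11 and 26. All deletion libraries lay above all controls. Its closest copy shares 64.6% of bases, so unlike Olfr603 it had no near-identical partner. Olfr619, also named afterwards, had 8.13, 36.7 and 72.1 in the controls and 43.3, 44.2 and 78.5 in the deletion libraries. These groups overlapped, and its log2 fold change was 0.89 ± 0.68 (SE, limma adjusted p = 0.982). Control 1 decides the size of that value, which was 0.04 without it.

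**Figure D3:**
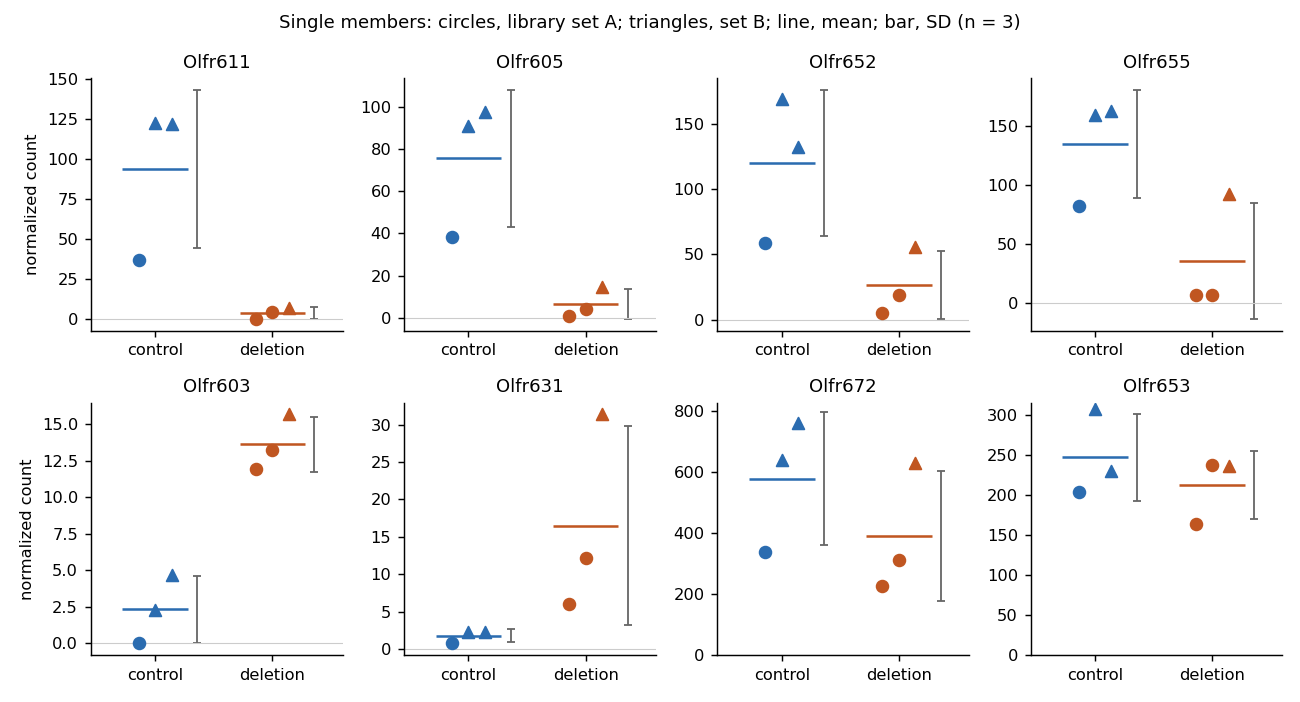
Normalized counts of 8 members in each library, on a linear axis of their own. Points are libraries (circles set A, triangles set B), horizontal lines are group means and grey bars the SD over 3 libraries. Olfr611, Olfr605 and Olfr652 are lower in every deletion library than in any control, Olfr603 and Olfr631 are higher in every one, and Olfr655, Olfr672 and Olfr653 overlap.

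The remaining members at an unadjusted p under 0.05 had overlapping groups. In the near block these were Olfr601, Olfr608, Olfr609, Olfr613, Olfr616, Olfr618 and Olfr624, and in the middle block Olfr632, and apart from Olfr601 they are named here after their values were seen. Olfr618 (chr7:103590103-103600448, plus strand) had 48.8, 78.1 and 115 in the controls and 8.22, 15.5 and 54.3 in the deletion libraries. Deletion 3 alone reached into the range of the controls, and the log2 fold change was -1.92 ± 0.62 (SE; -1.40 ± 0.35 in the set-adjusted fit). Olfr609, with 106, 193 and 181 against 34.4, 53.0 and 119, and Olfr613, with 66.5, 119 and 131 against 14.2, 43.1 and 67.6, each overlapped as well, with deletion 3 above control 1. The limma adjusted p was 0.982 for each of these 8 members.

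Other near-identical pairs had no member past the threshold. Olfr679 and Olfr681 (98.5% identity) had log2 fold changes of -0.86 ± 0.54 and -0.52 ± 0.42 (SE). Olfr679 had 8.87, 21.8 and 18.6 in the controls and 4.48, 7.73 and 14.5 in the deletion libraries, and Olfr681 had 39.9, 75.8 and 67.4 against 27.6, 30.9 and 78.5. Both pairs of groups overlapped. Olfr658 is closest to Olfr503 (97.1% identity), which counts as class II here by position alone and was at or below 6.04 in every library. Olfr658 had 132, 175 and 204 in the controls and 77.7, 100.5 and 183 in the deletion libraries, again overlapping.

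The members with the highest level per length were below 0 and did not pass the threshold. Per kilobase of annotated exon, averaged over the 6 libraries, Olfr672 led with a normalized count of 324 per kb, followed by Olfr610 at 106, Olfr690 at 92.5, Olfr665 at 82.9, Olfr640 at 65.3 and Olfr643 at 59.4. The identifiers of 72 of the 84 members had another version number than in GENCODE vM21, so the exons counted by the authors may differ from these lengths. Olfr643 is uncertain in particular, since its exons overlap those of Olfr638, Olfr639 and Olfr640. It had 42.1, 101 and 123 in the controls and 10.5, 11.0 and 96.6 in the deletion libraries. Deletion 1 and deletion 2 were low, deletion 3 was within the range of the controls, and the log2 fold change was -1.78 ± 0.81 (SE, limma adjusted p = 0.982; -1.04 ± 0.35 in the set-adjusted fit).

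Olfr672 (chr7:104995760-105002029, minus strand) had 336, 638 and 758 in the controls and 226, 310 and 629 in the deletion libraries. The groups overlapped, the set A libraries of each group were below those of set B, and the log2 fold change was -0.63 ± 0.40 (SE, limma adjusted p = 0.982; -0.25 in the set-adjusted fit). Olfr665, with 197, 383 and 427 against 103, 174 and 344, had a log2 fold change of -0.79 ± 0.44. Olfr610 (119, 251 and 230 against 87.4, 107 and 252) and Olfr640 (199, 313 and 378 against 126, 197 and 358) had -0.51 ± 0.42 and -0.47 ± 0.37. All of these overlapped between groups, and for Olfr610 and Olfr640 the value within set B alone was 0.07 and 0.06.

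The 3 tested members nearest to the element varied more than the 3 farthest from it. This came mainly from Olfr603, which had few reads, passed the filter through the deletion libraries alone and has a near-identical copy. Whether the spread depends on distance was not tested. The nearest member, Olfr600 (chr7:103343482-103349669, minus strand, 425 kb from the element), had 31.8, 85.0 and 127 in the controls and 22.4, 33.1 and 103 in the deletion libraries, overlapping, with a log2 fold change of -0.71 ± 0.64. The next, Olfr601, had 124, 176 and 152 against 42.6, 61.8 and 129, and here deletion 3 reached just above control 1. Its log2 fold change was -1.08 ± 0.37 (SE), and the next tested member, Olfr603, was the one described above at 2.46. At the far end, Olfr689, Olfr690 and Olfr691 were at -0.55 ± 0.39, -0.79 ± 0.56 and -0.71 ± 0.36 (SE). Olfr690 had 110, 277 and 326 in the controls and 74.7, 87.2 and 292 in the deletion libraries, which overlapped. None of these passed the threshold (limma adjusted p = 0.982 for each).

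Olfr692 (chr7:105368230-105369355, plus strand, 2450 kb from the element), the last member, is a receptor also described in the vomeronasal organ of the mouse. It was near the limit of detection with 0.739, 2.30 and 3.49 in the controls and 2.99, 4.42 and 6.04 in the deletion libraries, from 1 to 5 reads each, and was not tested. The groups overlapped, and a difference could not be detected at this depth.

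The members differed between the library sets in both groups. Between the set B controls and the set A control the median log2 difference over the 68 tested members was 1.02, and 68 of 68 were higher in set B. Between the set B and set A deletion libraries it was 1.45, with 67 of 68 higher. The same medians were 0.79 and 1.21 for the other class I genes, 0.33 and 0.40 for class II genes, and -0.03 and -0.03 for all genes tested. Control 1 was the lowest control for 65 of 68 members, deletion 3 the highest deletion library for 66, and deletion 3 exceeded control 1 for 63. The 2 exceptions among deletion libraries were Olfr653 and Olfr686, and Olfr686 had 54.5, 70.7 and 42.2. Whether the sets come from dissection, library preparation or sequencing is not recorded in the labels, and their part in the group differences was not tested beyond the fits above.

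**Figure D4:**
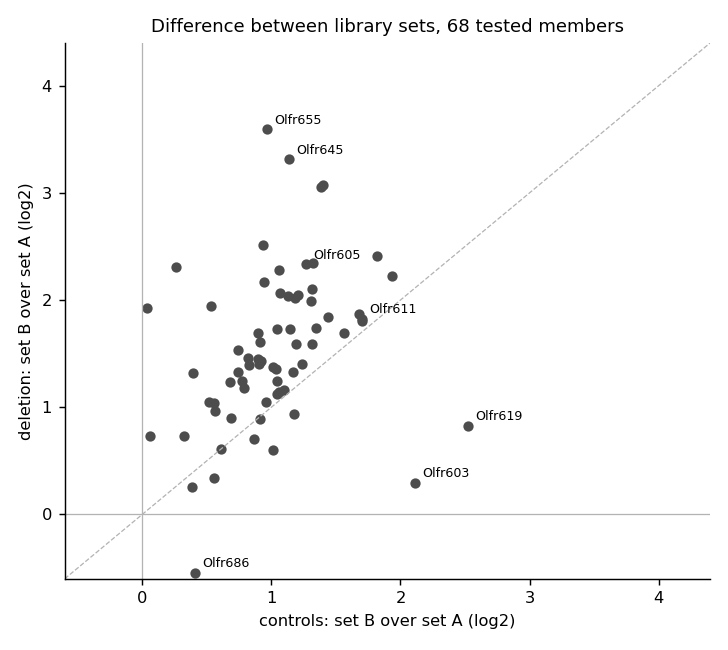
Each point is 1 of the 68 tested members: the log2 difference of set B over set A in the controls (horizontal) and in the deletion libraries (vertical), with equality dashed. All points lie right of 0 and all but Olfr686 above 0, and most lie above the dashed line, as the medians of 1.02 and 1.45 show.

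As a share of all odorant receptor signal the members made up 3.62%, 5.67% and 5.88% in the controls and 2.50%, 2.84% and 5.19% in the deletion libraries. The 95% Wilson intervals were 3.53% to 3.71%, 5.54% to 5.80% and 5.75% to 6.02% in the controls and 2.41% to 2.59%, 2.74% to 2.94% and 5.06% to 5.32% in the deletion libraries, and they cover counting error only. The libraries of a group thus differed by more than counting error, and deletion 3 lay above control 1. The means were 5.06% ± 1.25 and 3.51% ± 1.47 (SD, n = 3 each), a difference of -1.54 percentage points, which ranged from -1.04 without deletion 1 to -2.39 without deletion 3. In set A the control had 3.62% and its 2 deletion libraries a mean of 2.67%, and in set B the 2 controls had a mean of 5.77% and the deletion library 5.19%.

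Of the class I signal the members took about the same share in both groups. It was 60.3%, 62.3% and 63.1% in the controls and 60.2%, 59.2% and 61.6% in the deletion libraries, with means of 61.9% ± 1.47 and 60.3% ± 1.24 (SD, n = 3 each). The groups overlapped, and the Wilson interval of each library was between 1.80 and 2.73 points wide. The difference of means, -1.54 points, was about 1 SD of either group.

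**Figure D5:**
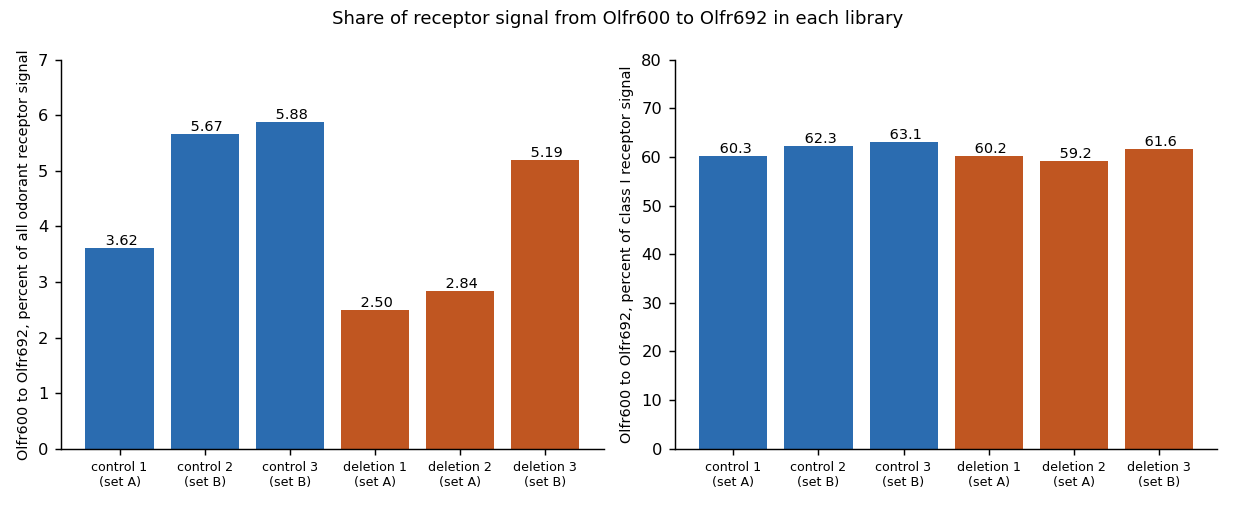
Share of all odorant receptor signal (left) and of class I receptor signal (right) that came from the 84 members, in percent, for each library, with bars from 0 (blue control, orange deletion). The left share is 2.50% to 3.62% in set A and 5.19% to 5.88% in set B, and the right share stays between 59.2% and 63.1%.

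Genes that act with the receptors did not pass the threshold. The list set up for olfactory signal transduction held 16 genes, among them Gnal, Adcy3, the channel subunits Cnga2 and Cnga4, and also Rtp1, Rtp2 and Reep1. Of these 16, 0 were called in limma, with a median log2 fold change of -0.07 and 0 at an unadjusted p under 0.05. Of 18 genes listed as regulators of receptor choice, 0 were called and 0 had an unadjusted p under 0.05, with a median of 0.02. They include the transcription factors Lhx2, Ebf1 and Bcl11b, and Rtp1 and Rtp2 again, so the lists are not separate. The list set up for the dorsal zone, where class I receptors are expressed, had a median of -0.18 (-0.06 in the set-adjusted fit), with 0 called. Its 4 genes Nqo1, Acsm4, Robo2 and Nrp1 were at -0.26, -0.24, -0.12 and -0.02. In the list set up as ventral, Ncam2, Nrp2, Sema3f and Cyp26b1 were at -0.08, -0.03, 0.23 and 0.26, with 0 called. Sema3f is not an established ventral marker, so no median is given for that list and the zones are not compared.

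Summed, the markers of mature sensory neurons moved with the library sets as the members did, though less. Adcy3 among them did not, with 41970, 47780 and 40654 in the controls and 40919, 47744 and 42685 in the deletion libraries. The summed normalized count of the 6 markers was 369887 to 450264 in the controls and 333992 to 413028 in the deletion libraries. By set it was 333992 to 387739 in set A against 406600 to 450264 in set B. None of the 6 markers was at 0 in any library, and 0 of 6 were called, with a median log2 fold change of -0.09. Omp, the marker of mature olfactory neurons, had 149810, 181804 and 167705 in the controls and 125370, 150823 and 162748 in the deletion libraries. The part of these levels in the members' lower values was not tested. Other lists split by library set as well. The sums of the olfactory transduction and dorsal lists were higher in set B, the dorsal one at 46578 to 52613 against 36063 to 42718. Those of the sustentacular, horizontal basal, Bowman gland and ciliated lists were higher in set A. For sustentacular cells the sum was 214508 to 242413 in set A and 205209 to 212443 in set B. In the 10 other lists of marker genes, for immature neurons, basal and progenitor cells, sustentacular cells, Bowman glands, ciliated cells, vomeronasal neurons, erythroid cells, macrophages and neutrophils, and ensheathing glia, 0 genes were called in either limma fit. The unadjusted p was under 0.05 for 2 of 4 ciliated cell genes (higher in the deletion libraries; list median 0.26), 2 of 4 erythroid genes (lower; list median -0.42) and 1 of 3 horizontal basal cell genes. These were the ciliary motor gene Dnah5 (log2 fold change 0.50 ± 0.18, SE) and Ccdc153 (0.33 ± 0.13), the heme synthesis gene Alas2 (-0.49 ± 0.14) and the alpha-globin gene Hba-a1 (-0.43 ± 0.18), and the basal cell factor Trp63 (0.33 ± 0.13), each with a limma adjusted p of 0.982.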

How the data were processed

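Total RNA from olfactory mucosa of 3 control and 3 deletion mice was, per the labels' protocols, purified on columns and turned into stranded libraries after removal of ribosomal RNA. STAR 2.6.0 and DESeq2 were used with GRCm38.p6, per the submitters' processing notes; which program counted the reads, with which annotation and strand setting, is not given in the sources used here. The authors deposited 1 table with a normalized value per gene and library, used here as a signal that is never negative, together with the authors' log2 fold change, its test statistic (a score), p-value and adjusted p-value. The values are gene counts divided by a size factor: 100% of those above 0 were whole multiples of 1 read (tolerance 0.001), so the authors' counts could be recovered from the deposited values.

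The main test was limma 3.58.1 (trend, R 4.3.3) on log2(value + 1), fitted on the 20368 genes that reached 10 in 3 or more libraries, with Benjamini-Hochberg adjustment over all of them and a threshold of 0.05. Fold changes on this scale understate the change of low genes. The library sets were divided at the largest gap in the number of genes with a read. edgeR 4.0.16 and DESeq2 1.42.0 were run on the recovered reads, and TMM and class II scaling, other filters and pseudocounts, a replicate block, each set alone and each library left out were tried; the fits that join the library set with edgeR, with class II scaling or with a library left out were added after the data were seen. The limma, edgeR and DESeq2 fits with group alone were tested on simulated data that held no library sets, and the set-adjusted fit was not tested in this way. Libraries of a group differed with a chi-square per gene of 17.4 to 47.5, so none was a copy of another. Replicate numbers were not treated as pairs, since deviations of same-numbered libraries correlated at 0.65, -0.34 and 0.66.

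Positions, lengths and sequences came from GENCODE vM21, in which 39985 of the 40273 identifiers were found without their version number. Distances were measured to the gene end closer to the element. Closest copies were found with blastn between annotated coding sequences. Class I genes were the receptor genes of the chromosome 7 cluster, and class II genes all others. This division rests on position and not on sequence, so a gene such as Olfr503 may be misplaced. The members, gene lists and tests were chosen with earlier results of these data known. Named members were those called in either limma fit, those with non-overlapping groups, the 6 highest per kilobase of exon, the 3 nearest and 3 farthest tested members, and Olfr692; any other member was named after its values had been seen.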

Additional observations from a re-analysis of the deposited data

How the results depend on the processing

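The members' median log2 fold change stayed below 0 under every alternative run, between -1.27 (without deletion 3) and -0.13 (set B alone). Class II scaling moved the median of all genes to 0.16 and that of the members to -0.59. The count of members called depended on the setting: 0 with a pseudocount of 5, no filter, TMM scaling, edgeR or set A alone, and 2 with DESeq2, with class II scaling and in the set-adjusted fit, which has the library set as a second term (Olfr605 and Olfr611 in each). Set B alone gave 3 (with Olfr652), from 1 deletion library. Leaving out each library in turn gave 0 to 2 with group alone, and 2 (Olfr605 and Olfr655) without deletion 3. That last fit sets deletion libraries of set A against controls of both sets. In the set-adjusted fit the count was 3 with edgeR (with Olfr631, higher), beside 40 of 20873 genes. It was 9 with class II scaling, of which 2 were higher, beside 95 of 20311 genes, whose median was 0.05. With each library left out it was 0 to 3, beside 14 to 42 of 20368 genes. Over all genes, counts of calls were 15 in the main fit, 40 with DESeq2, 27 with class II scaling, 36 in the set-adjusted fit, 2 in set A, 90 in set B and 6 to 24 with a library left out; the set-adjusted fit gave 40 with edgeR, 95 with class II scaling and 14 to 42 with a library left out.

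Of the 64 tested members below 0 in the main fit, 20 were above 0 in set B alone and 2 in the set-adjusted fit. Among the members named by the rule, Olfr610 was at 0.068 and Olfr640 at 0.059 in set B alone. The set-adjusted fit without control 1 repeats these values, since it too compares the groups within set B alone. Without deletion 1 the set-adjusted fit gave 0.015 for Olfr600 and 0.026 for Olfr640. With the replicate block, which the numbers do not justify as a pairing, 2 members (Olfr605 and Olfr611) and 46 genes were called; control 2 correlated best with deletion 3, not with its own number. The cause of these changes was not tested. Members with few reads, such as Olfr603, Olfr631 and Olfr692, are limited by depth, and those with near-identical copies by the unstated handling of shared reads.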
